A study of Mus musculus with 26 samples.

Results

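The type 2 helper cytokine axis was followed through 10 genes in mouse spleen. They are the cytokines Il4, Il5, Il13 and Il9, the receptor chains Il4ra, Il13ra1 and Il1rl1, and the transcription factors Gata3, Stat6 and Maf. Members were taken by gene symbol from the deposited table of 56392 genes, and each of the 10 symbols matched a single gene. The cytokines other than Il4 were near 0. Il9 had no read in any of 26 libraries, Il5 had 12 reads in total and Il13 had 62. Il4 stood near 1 FPKM (fragments scaled by transcript length and library size), and the 3 receptor chains and 3 transcription factors were detected in every library. The filter for testing, an FPKM of 1 or more in 5 or more libraries, was passed by 7 of the 10 members and by 15672 genes in all.

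Type 2 immunity is the arm of the immune response that acts in allergy and against worms. Helper T cells of this kind are set up by GATA3, and they release IL-4, IL-5, IL-13 and IL-9, which act on B cells, eosinophils, epithelium and mast cells. IL-4 and IL-13 signal through receptors that hold the IL-4 receptor alpha chain and through STAT6, while IL-33 acts on type 2 helper cells, mast cells and type 2 innate lymphoid cells through ST2, the product of Il1rl1.

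The spleens came from female BALB/c mice, 8 weeks old, and poly(A) RNA was sequenced. The 5 saline libraries, coded CT, came from mice injected in the peritoneum with normal saline on days 1, 3 and 5. The 11 OVA libraries (6 coded OS, 5 coded ON) came from mice injected in the peritoneum with ovalbumin, a model allergen from egg white, at 0.05 mg per day on days 1, 3 and 5. The 10 libraries of OVA with mimic (5 coded MM, 5 coded MN) came from mice that also received a miR-676-3p mimic at 7 mg per kg in the tail vein on day 3. Per the labels a group held 20 mice. The codes are not explained there, nor is it stated that each library is its own mouse, so p-values below measure the spread between libraries, which may be technical.

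Recovered reads per library ran from 14224832 to 18113989, with a median of 16000976. Spleen cell markers were present throughout: summed FPKM was 531 to 1350 for 8 B cell markers, 298 to 926 for 18 T cell markers and 729 to 1360 for 12 macrophage markers, and none of these genes was at 0 in all libraries. Pancreas markers made up 28.7% of the reads of ON 2, 14.4% of those of MM 2 and 4.36% of those of ON 3, with under 1% in each other library. The mitochondrial share was 6.62% in CT 4 and no more than 2.39% elsewhere.

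The 4 cytokine genes were searched for short motifs of STAT6 and GATA factors in the 250 bases before the start given by RefSeq, because Gata3 and Stat6 encode factors that act at these genes in T cells. Windows of 30 bases around 1 match per gene are shown on the strand of the gene, 5′ to 3′, from RefSeq promoters on GRCm38.p6, with the match in capitals.
Il4, chr11:53618813-53618842, minus strand: ttggtctgatTTCACAGGAAaatttacctg
Il9, chr13:56482422-56482451, minus strand: agagcatcttTTCTGAGGAAtggtatttcc
Il13, chr11:53634766-53634795, minus strand: gatgtggttttcAGATAAtgcccaacaaag
Il5, chr11:53720710-53720739, plus strand: attaggtgtcctCTATCTgattgttagcaa
Il4 and Il9 hold the STAT6 type motif, TTC and GAA with 4 bases between them, at bases -167 to -158 and -184 to -175 from the start. It occurs in 5.85% of 32851 promoters when both strands are read. Il13 holds the GATA motif AGATAA at -81 to -76, a sequence found in 9.99% of promoters. Il5 holds AGATAG on the opposite strand at -72 to -67, which 7.71% of promoters hold. None of these 4 matches overlaps another motif that was searched. The GATA forms TGATAA and TGATAG, in 7.94% and 6.35% of promoters, and TTC and GAA with 3 bases between them, in 7.02%, were searched as well, on both strands. Outside the cytokine genes, Il1rl1 was the only member with a GATA match, with 6 over its 2 annotated starts. TGCTGA, a part of the Maf site that 16.1% of promoters hold, occurs 3 times before the Il4 start whose window is shown. It also lies before Il13 (-239 to -234), Gata3 (-90 to -85) and an Il1rl1 start (-192 to -187). Another annotated Il4 start holds the GATA form TGATAG at -80 to -75. Of the 10 members, 9 had a promoter entry (Maf had none). For Il9, no transcript of the other annotation compared begins at the RefSeq start, so its distances hold for that start alone. A match describes these letters and is not a binding site.

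Il4 was the only cytokine of the axis measured in every library, at 11 to 37 reads. The gene (ENSMUSG00000000869) lies on chromosome 11 from 53493809 to 53509496 on the minus strand, in the coordinates of the deposited table, whose build was not given in sources used here. Il4 FPKM was 1.22, 0.897, 1.3, 2.25 and 1.23 in CT, and 0.887, 1.62, 1.36, 1.08, 0.863 and 1.13 in OS. It was 0.598, 0.806, 1.68, 0.806 and 1.29 in ON, 1.40, 0.777, 0.897, 0.960 and 1.17 in MM, and 1.09, 1.12, 1.24, 1.02 and 0.855 in MN. The saline library CT 4 was the highest of all 26, and the ranges of all 5 codes overlapped. Means were 1.38 ± 0.512 in CT (SD, n = 5), 1.16 ± 0.290 in OS (n = 6), 1.04 ± 0.440 in ON (n = 5), 1.04 ± 0.245 in MM (n = 5) and 1.06 ± 0.142 in MN (n = 5). Il4 reads per library averaged 26 in saline (exact 95% Poisson interval 21.7 to 30.9), 21.5 under OVA (18.8 to 24.4) and 21.8 under OVA with mimic (19.0 to 24.9). These intervals cover counting error only, since the reads carry no stated molecular identifiers.

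Il13, which drives mucus production and airway hyperreactivity in allergy models, was sparse but unevenly spread over the codes. Its gene (ENSMUSG00000020383, chromosome 11 from 53522151 to 53525529, minus strand) had 0, 0, 1, 0 and 2 reads in the CT libraries, which is an FPKM of at most 0.109. The OS libraries had 6, 3, 2, 6, 2 and 3 reads (FPKM 0.0976 to 0.329), and the ON libraries had 2, 1, 3, 3 and 2 (FPKM 0.0746 to 0.151). The MM libraries had 9, 0, 4, 2 and 5 reads (FPKM 0 to 0.426), and the MN libraries had 2, 1, 1, 1 and 1 (FPKM 0.0452 to 0.0962). Reads were thus present in 2 of 5 saline libraries, 11 of 11 OVA libraries and 9 of 10 libraries of OVA with mimic, and 7 of the 11 OVA libraries lay above the highest saline library. The average per library was 0.6 reads in saline (95% Poisson interval 0.124 to 1.75, from 3 reads), 3 reads under OVA (2.07 to 4.21, from 33 reads) and 2.6 under OVA with mimic (1.70 to 3.81, from 26 reads).

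This difference in Il13 did not pass the test. In limma without the filter, over 35291 genes, Il13 in OVA against saline differed by 0.16 ± 0.06 on the log2(FPKM + 1) scale (SE), with adjusted p = 0.256, where 0.425% of those 35291 genes passed. Its unadjusted p was under 0.05, as were those of 10.6% of genes. For OS alone against saline the limma difference was 0.21 ± 0.06, adjusted p = 0.144, and for MM against MN it was 0.16 ± 0.07, adjusted p = 0.721, and 0.098 without MM 1. A pseudocount of 1 compresses values this low. With 0.1 in its place, the difference in OVA against saline was 0.95 ± 0.28 and its limma adjusted p was 0.137, while that in OS against saline was 1.16 ± 0.31, with an adjusted p of 0.0823. The latter was the lowest adjusted p of any member in any comparison or alternative that was run. OVA with mimic differed from OVA by -0.04 ± 0.05 (limma adjusted p = 0.849). The summed FPKM of 14 basophil and mast cell markers, cells that could carry Il13, had a median of 25.7 in CT (21.3 to 35.6), 38.0 in OS (29.8 to 57.3) and 33.9 in ON (26.01 to 39.4). It was 25.6 in MM (19.2 to 40.03) and 25.2 in MN (22.4 to 41.9). The median sum of 8 markers of type 2 innate lymphoid cells did not rise, at 12.6 in CT, 11.3 in OS and 10.9 in ON. It was 11.4 in MM and 10.2 in MN. For 18 T cell markers the median sum was lower in OS and ON than in CT, and higher in MM and MN. The ranges of CT, OS and ON overlapped for all these marker sums. The part of these cells in the Il13 reads was not tested. In a whole tissue, fewer cells of a type and less RNA per cell cannot be told apart.

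Il5, the growth factor of eosinophils, gave 12 reads in 7 libraries. Its gene is ENSMUSG00000036117, on chromosome 11 from 53611621 to 53615933 on the plus strand. No saline library had a read, and 5 of the 12 reads came from OS 4, which had an FPKM of 0.215. ON 5 held 1 read, MM 2 and MM 4 held 1 each, MN 2 and MN 5 held 1 each and MN 4 held 2. For 0 reads in a library, the limit of 3 reads corresponds to an Il5 FPKM of 0.102 to 0.175, so most of these values lie below what a library without a read allows. Il9 (ENSMUSG00000021538, chromosome 13 from 56627090 to 56630059, minus strand), a cytokine of mast cell growth, was at 0 in all 26 libraries. The same 3 reads allow an Il9 FPKM of up to 0.291 to 0.503 per library, and a lower level was not detectable at this depth.

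**Figure D1:**
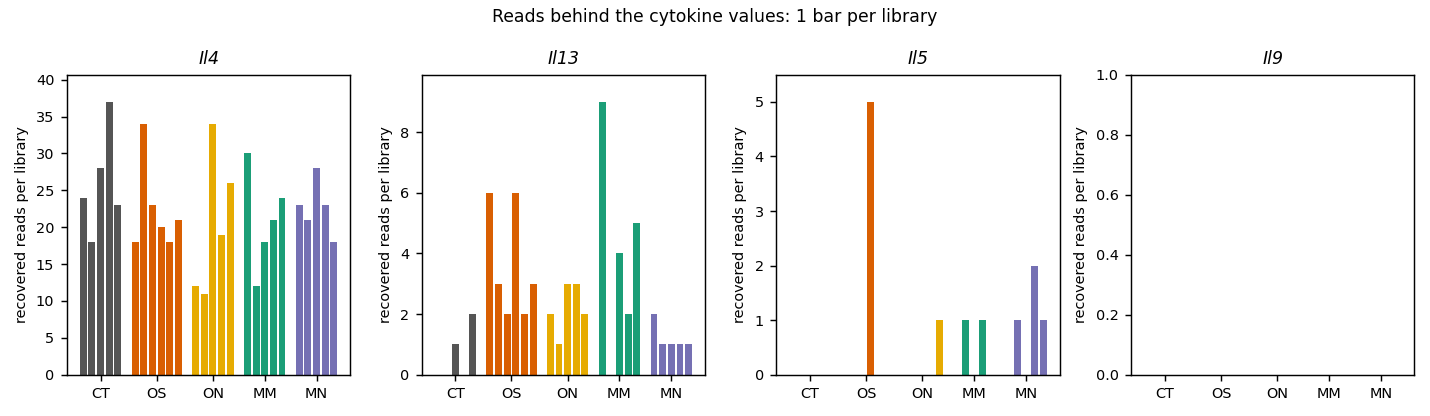
Recovered reads of the 4 cytokine genes, with 1 bar per library, grouped by code on the x axis and counted on the y axis (each panel has its own scale). Il4 has 11 to 37 reads in every library, Il13 at most 9, Il5 at most 5 and Il9 none.

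By median FPKM, which is scaled for gene length, the 7 members that passed the filter ranked Stat6, Maf, Il4ra, Il13ra1, Il1rl1, Gata3 and Il4. Stat6, at 30.8 to 47.5 with a median of 40.8, lay above every value of Maf, which ran from 14.8 to 29.5. The next steps overlapped: Il4ra ran from 6.11 to 32.4, Il13ra1 from 3.84 to 7.54, Il1rl1 from 1.76 to 7.06 and Gata3 from 0.725 to 3.29. The lowest Il4 value, 0.598, lay above the highest Il13 value, 0.426.

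Il4ra encodes the chain shared by the receptors for IL-4 and IL-13. It is ENSMUSG00000030748, on chromosome 7 from 125151292 to 125178646 on the plus strand. Il4ra FPKM was 16.1, 17.5, 19.3, 6.11 and 16.2 in CT, and 21.3, 23.7, 20.4, 32.4, 9.36 and 13.0 in OS. It was 17.5, 14.3, 14.4, 13.7 and 16.9 in ON, 24.6, 11.8, 23.4, 15.1 and 16.9 in MM, and 17.5, 16.9, 17.5, 18.9 and 17.1 in MN. OS was the most spread code, holding the highest value, and CT 4 held the lowest. Means were 15.1 ± 5.17 in saline (n = 5), 17.9 ± 6.35 under OVA (n = 11) and 18.0 ± 3.73 under OVA with mimic (n = 10). The limma difference of 0.24 ± 0.23 between OVA and saline (adjusted p = 0.667) became -0.03 without CT 4.

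Il13ra1 encodes the chain that joins the IL-4 receptor alpha chain in the receptor that binds both IL-13 and IL-4. The gene is ENSMUSG00000017057, on chromosome X from 35375763 to 35434912 on the plus strand. Il13ra1 FPKM was 5.75, 5.27, 4.69, 3.84 and 5.07 in CT, and 6.58, 5.93, 6.64, 6.45 and 6.42 in MM. All 5 MM libraries lay above all 5 CT libraries, which 2% of the 15672 genes did in either direction. The other codes reached across both, with 4.02 to 7.54 in OS, 4.51 to 7.45 in ON and 4.76 to 7.29 in MN. The limma difference between MM and saline was 0.33 ± 0.14 (adjusted p = 0.419).

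Il1rl1 encodes ST2, the receptor for IL-33. It is ENSMUSG00000026069, on chromosome 1 from 40468730 to 40504575 on the plus strand. Il1rl1 FPKM was 3.84, 3.27, 3.07, 7.06 and 2.78 in CT, and 3.64, 2.46, 4.75, 1.97, 4.31 and 4.88 in OS. It was 2.21, 4.93, 2.92, 4.34 and 3.97 in ON, 1.76, 5.72, 3.87, 3.35 and 3.00 in MM, and 3.40, 3.2, 2.31, 2.97 and 2.92 in MN. CT 4 and MM 2 were the highest libraries and the ranges of all codes overlapped. The limma difference between OVA and saline was -0.08 ± 0.20 (adjusted p = 0.896), and 0.11 without CT 4.

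Gata3 encodes the factor that sets up type 2 helper cells and that early T cells also need. It is ENSMUSG00000015619, on chromosome 2 from 9861889 to 9894845 on the minus strand. Gata3 FPKM was 2.11, 2.01, 2.09, 1.80 and 2.06 in CT, and 1.76, 2.17, 1.59, 3.29, 0.725 and 1.39 in OS. It was 2.12, 0.791, 1.89, 1.94 and 2.00 in ON, 2.83, 1.32, 2.27, 1.66 and 1.98 in MM, and 1.81, 2.16, 1.86, 1.92 and 1.96 in MN. CT and MN were narrow, with SDs of 0.125 and 0.137, while OS was wide, with an SD of 0.863, and held both the highest and the lowest library. The mean was 2.02 ± 0.125 in saline, 1.79 ± 0.701 under OVA and 1.98 ± 0.398 under OVA with mimic.

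Stat6 transmits the signal of IL-4 and IL-13 to the nucleus, and Maf encodes c-MAF, an activator of Il4 in T cells that macrophages also express. Stat6 (ENSMUSG00000002147, chromosome 10 from 127478855 to 127496826, plus strand) ran from 30.8 to 44.1 FPKM in CT, 32.7 to 47.3 in OS, 37.2 to 47.5 in ON, 39.2 to 45.1 in MM and 41.1 to 44.7 in MN. The gene overlaps Nab2 on the opposite strand, which had a median FPKM of 5.91, and strand use in counting was not stated. Maf (ENSMUSG00000055435, chromosome 8 from 116409681 to 116434533, minus strand) had a mean of 17.6 ± 2.48 in saline, 20.0 ± 2.99 under OVA and 21.8 ± 3.38 under OVA with mimic. The highest Maf value, 29.5, was in MM 2, a library with pancreas markers, and the remaining MM libraries lay at 19.9 to 24.3.

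**Figure D2:**
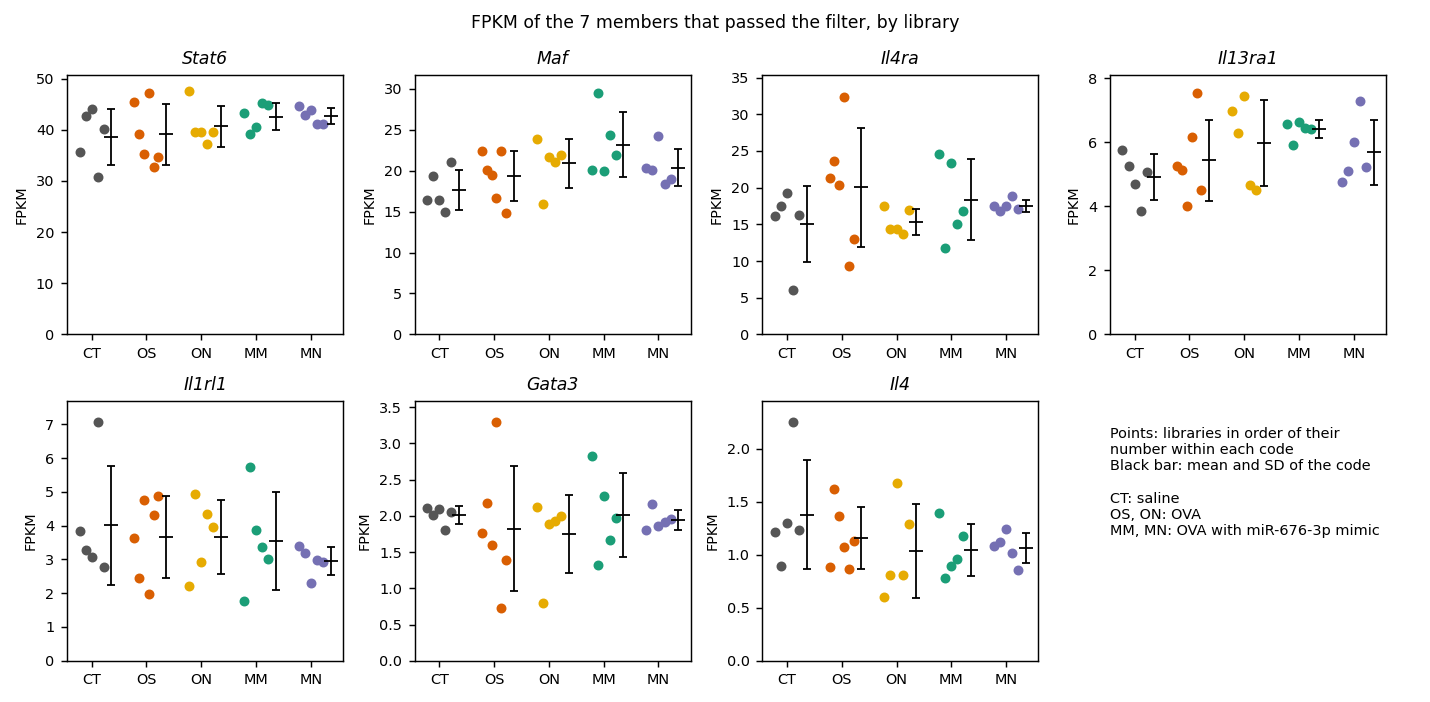
FPKM (y axis, from 0) of the 7 members that passed the filter, with 1 point per library by code (x axis) and the mean and SD beside the points. Every panel overlaps between saline and the OVA codes, except that all 5 MM values of Il13ra1 lie above the CT values, and CT 4 lies apart in Il4ra, at 6.11, and in Il1rl1, at 7.06.

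What the allergen changed is answered by OVA against saline, and no member passed. In limma 0 of 7 members had an adjusted p under 0.05, in a comparison where 2.17% of 15672 genes did. At an unadjusted p under 0.05 there were 0 of 7 members, against 16.3% of all genes, and limma voom on the recovered reads called 0 of 7, against 1.83% of all genes. With so small a share called, a count of 0 in 7 does not set the axis apart from other genes. The differences ran from -0.18 ± 0.12 for Il4 (95% interval -0.43 to 0.08) to 0.24 for Il4ra (-0.23 to 0.71), with a median of 0.05 beside 0.01 for all genes. Both ends rest on CT 4, without which Il4 stood at -0.059 and Il4ra at -0.03. Intervals were narrowest for Stat6, at 0.05 (-0.14 to 0.23), followed by Maf at 0.17 (-0.05 to 0.40) and Il13ra1 at 0.16 (-0.08 to 0.41), which was 0.094 without CT 4. Il1rl1 spanned -0.49 to 0.33 and Gata3, at -0.16, spanned -0.47 to 0.16. Gata3 stood at -0.081 without ON 2 and at -0.090 without OS 5. A p-value above the threshold does not show that a level stayed the same, and these intervals give the sizes that remain possible.

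In OVA with mimic against OVA, again 0 of 7 members passed in limma, with 0% of all genes called. The labels name no vein injection for the OVA libraries, so the microRNA mimic and its injection cannot be told apart here. The unadjusted p was under 0.05 for 0 of 7 members and for 10.1% of all genes, and voom called 0 of 7 members and 0% of genes. Differences ran from -0.13 ± 0.16 for Il1rl1 (95% interval -0.46 to 0.20) to 0.13 ± 0.12 for Gata3 (-0.13 to 0.38). Stat6 stood at 0.10 (-0.05 to 0.25), Maf at 0.11 (-0.08 to 0.30), Il13ra1 at 0.09 (-0.11 to 0.28) and Il4ra at 0.06 (-0.32 to 0.44). Il4 differed by -0.02 (-0.22 to 0.19), the smallest of the 7 differences. With one library left out, Il1rl1 ran from -0.21 (without MM 2) to -0.050 (without MM 1) and Gata3 from 0.053 (without ON 2) to 0.19 (without OS 4), and Maf was 0.016 without the libraries with pancreas markers.

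OVA with mimic against saline also gave 0 of 7 members in limma, with 0% of all genes called. It shares its libraries with both comparisons above. Unadjusted p was under 0.05 for 2 of 7 members, Maf and Il13ra1, against 6.72% of all genes. Maf differed by 0.28 ± 0.11 (limma adjusted p = 0.732). Il13ra1 differed by 0.25 ± 0.12 (limma adjusted p = 0.732). Of the 10 libraries with mimic, 9 lay above the saline mean of Il13ra1. Without the libraries with pancreas markers the differences were 0.24 for Maf and 0.26 for Il13ra1, and without CT 4 they were 0.23 and 0.18.

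**Figure D3:**
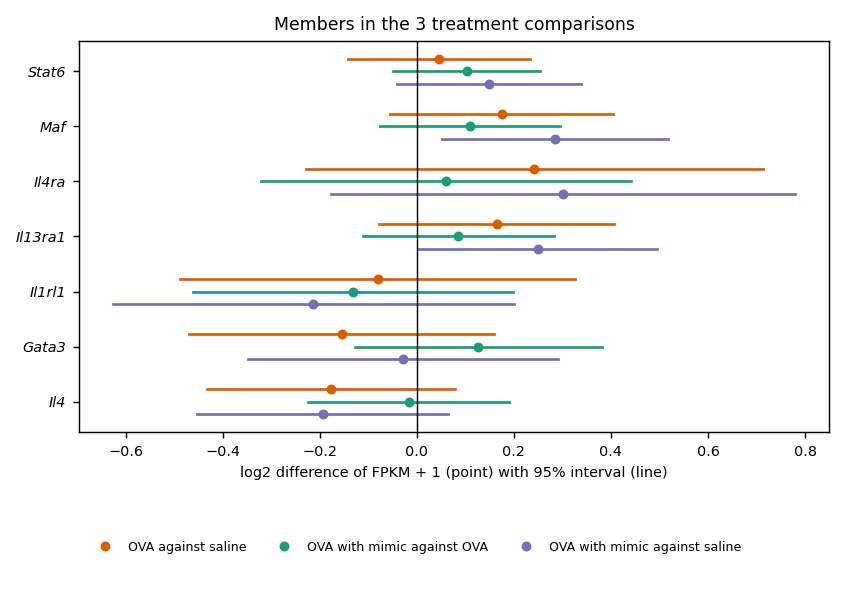
Log2 difference of FPKM + 1 (x axis) for 7 members (y axis) in the 3 treatment comparisons, with the limma estimate as a point and its 95% interval as a line. All intervals cross 0 except those of Maf and Il13ra1 in OVA with mimic against saline, where neither passed after adjustment.

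Between codes of a single treatment, limma called 0 of 7 members in OS against ON, where 0.185% of genes were called, and 0 of 7 in MM against MN, where 0.172% were. Single codes against saline gave 0 of 7 each, beside 2.99% of genes for OS, 0.51% for ON, 0.3% for MM and 0% for MN. Il4ra in OS against saline differed by 0.38 (95% interval -0.15 to 0.91), and by 0.10 without CT 4 or 0.22 without OS 4. In MM against saline Maf differed by 0.37 ± 0.13 (limma adjusted p = 0.301), and 2 of 7 members had an unadjusted p under 0.05 where 9.78% of genes did.

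Several members varied together across libraries. Gata3 followed the mean log2 level of 18 T cell markers over the 26 libraries, with Pearson r = 0.77 (permutation p = 2.0e-05, adjusted over 9 pairs 0.00018) and Spearman rho = 0.74 (permutation p = 6.0e-05, adjusted 0.00054). Without OS 5 and ON 2, the 2 libraries farthest from the median of Gata3, that r was 0.84. After subtraction of each code's mean, r was 0.79 (permutation p adjusted 0.00036), and it was 0.80 without the 2 farthest libraries on that scale, OS 5 and OS 4. ON 2, with 28.7% of reads on pancreas markers, and OS 5, with under 1%, had the lowest Gata3, and their T cell marker means were 3.95 and 4.24 on the log2 scale, against 5.16 in OS 4, which had the highest. Single codes hold 5 or 6 libraries, too few for a test of their own. Within them r was 0.93 in CT, 0.84 in OS, 0.84 in ON, 0.97 in MM and -0.03 in MN.

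Gata3 ran opposite to Il1rl1. The Pearson r was -0.64 (permutation p = 0.00035, adjusted 0.00105) and rho was -0.66 (permutation p = 0.00033, adjusted 0.00148). Without OS 5 and ON 2 that r was -0.70. With code means subtracted r was -0.68 (permutation p adjusted 0.0013), and -0.67 without OS 5 and OS 4. Within single codes, not tested, r was -0.88 in CT, -0.82 in OS, -0.64 in ON, -0.86 in MM and 0.21 in MN. In OS 4 Gata3 was at 3.29 and Il1rl1 at 1.97, while in MM 2 Gata3 was at 1.32 and Il1rl1 at 5.72.

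Il4ra and Stat6, receptor and signal transducer, also varied together. The Pearson r was 0.68 (permutation p = 8.0e-05, adjusted 0.00036) and rho was 0.54 (permutation p = 0.00435, adjusted 0.0130). That r was 0.48 without CT 4 and OS 4, the lowest and the highest Il4ra library, so its size rests in part on these. With code means subtracted r was 0.74 (permutation p adjusted 0.00177), and 0.58 without CT 4 and OS 5. Within single codes, not tested, r was 0.89 in CT, 0.84 in OS, 0.77 in ON, 0.17 in MM and -0.35 in MN. The 3 relations were past the threshold also without the 3 libraries with pancreas markers, where r was 0.72 for Gata3 with T cell markers, -0.59 for Gata3 with Il1rl1 and 0.69 for Il4ra with Stat6. For Il4ra with Stat6 in those 23 libraries, rho was 0.47 and its adjusted permutation p was 0.0751.

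The other 6 of 9 pairs were not past the threshold. They were Gata3 with Maf (r = -0.09), Il4ra with Il13ra1 (r = 0.17), Maf with T cell markers (r = -0.07), Il1rl1 and Il4 with basophil and mast cell markers (r = 0.14 and -0.21) and Il13ra1 with macrophage markers (r = 0.19). The adjusted permutation p of these 6 lay between 0.596 and 0.723. A p above the threshold does not show that a pair is unrelated, and Il4 rests on 11 to 37 reads per library. Without CT 4, Il1rl1 with basophil and mast cell markers had r = 0.43 (permutation p adjusted over 12 pairs 0.0661), Il4 with those markers had r = 0.04 and Il4ra with Il13ra1 had r = -0.10. After these values were seen, 3 more pairs were looked at and are given with no test. Il4ra ran opposite to Il1rl1 (r = -0.73, and -0.63 without CT 4) and alongside Gata3 (r = 0.64, and 0.79 without CT 4), and Il4 with Il1rl1 had r = 0.07 (-0.30 without CT 4).

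**Figure D4:**
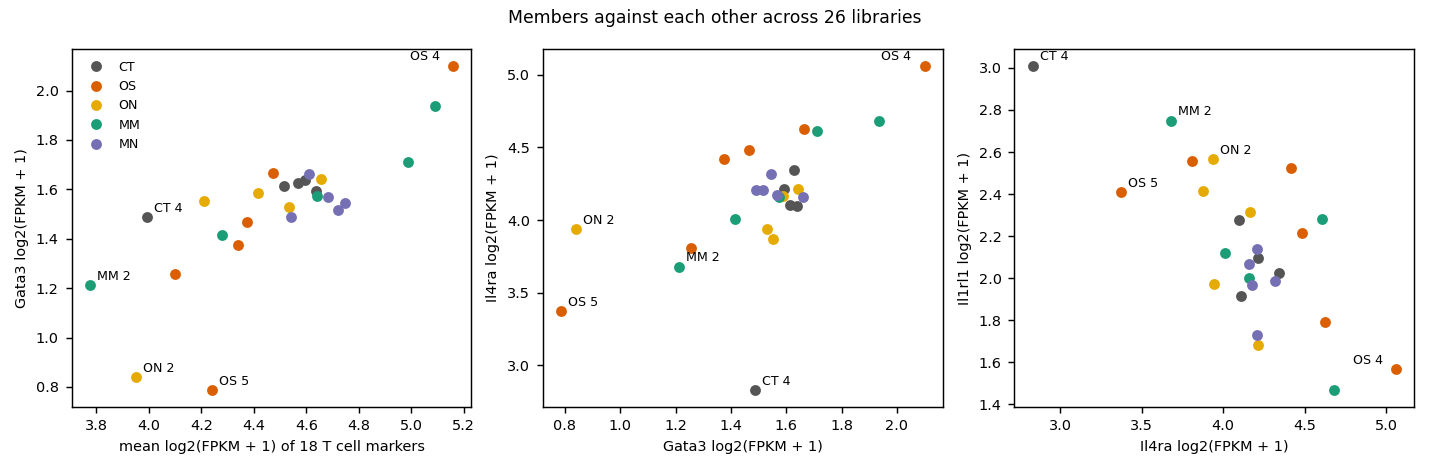
Log2(FPKM + 1) of members against each other in 26 libraries, 1 point per library coloured by code, with the libraries named in the text marked. Gata3 rises with the mean of 18 T cell markers (left, r = 0.77) and with Il4ra (middle, r = 0.64), and Il1rl1 falls as Il4ra rises (right, r = -0.73), with CT 4 apart at the lowest Il4ra.

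The genes nearest to each member in pattern were taken as the 2 annotated protein-coding genes with the highest r after subtraction of code means, over 26 libraries. These are descriptions, and the libraries share composition and depth. Il4ra lay nearest to Relb, an NF-kappaB subunit (r = 0.96), and Cyth1, an exchange factor for small GTPases (r = 0.95). Il1rl1 lay nearest to the DNA replication gene Wdhd1 (r = 0.96) and the recombination gene Rad54l (r = 0.93). Gata3 lay nearest to Lsp1, a leukocyte actin-binding protein (r = 0.91), and Pced1b (r = 0.90). Stat6 lay nearest to Trio and Fnbp1 (r = 0.90 and 0.89), Il13ra1 to Numb and Zfp119a (r = 0.83 and 0.81) and Maf to Lims2 and Itgad (r = 0.75 and 0.73). Il4 had no neighbour as close: Dnajb6 and Gtf2f2 were both at r = 0.70, and at 0.56 and 0.57 without CT 4.

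The partners of the axis were looked at through lists drawn up from general knowledge, but with earlier results of these data known. Of 14 further receptor chains and kinases, all 14 were tested and 0 passed in limma in any of 9 comparisons. In these comparisons 0% to 2.99% of all genes were called, so a count of 0 does not set so short a list apart. Jak1, a kinase of the IL-4 receptor, stood at 72.9 ± 10.4 FPKM under OVA and 66.7 ± 6.95 in saline. Il2rg, the common gamma chain that completes the lymphoid IL-4 receptor, stood at 42.0 ± 7.58 and 38.8 ± 5.10. For these 14 genes the median difference between OVA and saline was 0.11, beside 0.01 for all genes.

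Genes that respond to IL-4 and IL-13 did not pass either. Of 21 on the list 18 were tested and 0 passed in any comparison, where at most 2.99% of all genes did. Their median difference was 0.16 in OVA against saline. Chil3, a chitinase-like protein of alternatively activated macrophages, had 75.1 ± 28.7 FPKM under OVA, 35.5 ± 25.1 in saline and 45.8 ± 30.04 under OVA with mimic. Its limma difference between OVA and saline was 1.18 ± 0.45 (adjusted p = 0.176), and that between OVA with mimic and OVA was -0.94 ± 0.37 (adjusted p = 0.394). Fcer2a, the low-affinity IgE receptor of B cells, had 52.1 ± 11.3 under OVA and 58.7 ± 11.8 in saline. The constant regions of IgE and IgG1, whose switching IL-4 directs, were picked out after their values were seen. Ighe had 0.974 ± 0.603 under OVA and 0.587 ± 0.164 in saline (limma adjusted p = 0.642), and Ighg1 had 37.0 ± 10.6 and 22.0 ± 14.4 (adjusted p = 0.216).

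Among 21 transcription factors and cofactors listed for type 2 helper cells, all tested, Irf4 and Nfil3 rose. The list also holds Tbx21, Runx3, Eomes and Bcl6, which are factors of other T cells. Of all genes, 2.17% were called in OVA against saline, 2.99% in OS against saline and 0.185% in OS against ON. Irf4, which T and B cells induce on activation, rose in OVA against saline, from 15.7 ± 2.05 to 25.5 ± 8.63 FPKM (0.57 ± 0.12, limma adjusted p = 0.0126). Within OVA it was higher in OS, with 31.7 ± 6.51, than in ON, with 18.1 ± 2.41 (0.76 ± 0.13, limma adjusted p = 0.0202). In OS against saline Irf4 rose by 0.95 ± 0.13 (limma adjusted p = 6.13e-04). Nfil3 rose in OS against saline, from 2.65 ± 0.416 to 10.5 ± 4.34 (1.55 ± 0.34, limma adjusted p = 0.0128). The call for Irf4 in OVA against saline was lost in 4 of 26 alternatives, among them without CT 1, with adjusted p up to 0.0861. That in OS against ON was lost in 9 of 20, among them without OS 2, OS 3, OS 4, ON 3, ON 4 or ON 5, with adjusted p up to 0.235. The calls for Irf4 and Nfil3 in OS against saline were kept in all 20 alternatives. Junb (120 ± 109 under OVA, 65.3 ± 35.5 in saline) and Ikzf1 (71.4 ± 9.25 and 75.6 ± 16.3), the most abundant of the list, did not pass.

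Of 10 surface receptors of type 2 helper cells 7 were tested, and Ccr8 and Icos rose in OS against saline, with 0 fallen. Of all genes, 2.99% were called in that comparison. Ccr8, a chemokine receptor of skin-homing and type 2 T cells, rose from 0.490 ± 0.413 to 2.06 ± 1.03 FPKM (1.01 ± 0.21, limma adjusted p = 0.00845), a call that ended in 1 of 20 alternatives, with only the 2 codes fitted (adjusted p = 0.101). Icos, a costimulator, rose from 6.21 ± 0.841 to 12.9 ± 6.64 (0.85 ± 0.23, limma adjusted p = 0.0411), a call that ended in 10 of 20 alternatives, among them without CT 2, CT 3, CT 4, CT 5, OS 1, OS 2, OS 3 or OS 4, with adjusted p up to 0.171. Of 10 alarmins and companion cytokines only Il33 and Il10 were tested. Il10 rose in OS against saline, from 1.12 ± 0.761 to 11.3 ± 8.50 (2.17 ± 0.53, limma adjusted p = 0.0261), and that call ended in 7 of 20 alternatives, among them without CT 4, OS 2, OS 3 or OS 4, with adjusted p up to 0.166. Il33, the ligand of ST2, stood at 5.50 ± 1.60 under OVA and 5.50 ± 1.09 in saline (limma adjusted p = 0.960). The OS libraries also stood high in 21 immediate early genes, whose summed FPKM was 425 to 2222 in OS and 211 to 881 in CT. Of these genes 11 of 21 rose in OS against saline, where 2.99% of all genes were called. The sum also ran high in MM, at 727 to 2221, and was 448 to 806 in ON and 489 to 698 in MN. In MM against saline all 21 lay above 0 and 0 passed in limma, where 0.3% of all genes did. The part of the immediate early genes in the rises of Irf4, Nfil3, Ccr8, Icos and Il10 was not tested.

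Listed negative regulators of IL-4 signalling gave 0 of 16 in all 9 comparisons, where at most 2.99% of all genes were called. The 16 include Parp14, a coactivator of STAT6, so not all of them are negative regulators. Ptpn6, the phosphatase SHP-1, stood at 119 ± 19.3 FPKM under OVA and 134 ± 26 in saline, and Ptpn1 at 35.9 ± 3.84 and 36 ± 7.61. Neighbours of the Il4, Il13 and Il5 locus gave 0 of 6 tested, with Septin8 at 24.4 ± 6.56 and 24.1 ± 8.08 and Irf1 at 19.7 ± 5.84 and 24.4 ± 6.67.

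Markers of the cells that carry the axis gave few calls. T cell markers gave 0 of 18, macrophage markers 0 of 12, B cell markers 0 of 8 and eosinophil markers 0 of 9 in all 9 comparisons. Of all genes 2.17% were called in OVA against saline and 2.99% in OS against saline. Eosinophil markers lay 8 above 0 and 1 below in OVA against saline, with a median of 0.77 beside 0.01 for all genes. There 0 of 9 had an unadjusted limma p under 0.05, and their summed FPKM ran from 32.2 to 1188 over 26 libraries. T cell markers lay 15 above 0 and 3 below in OVA with mimic against OVA, with a median of 0.25 beside 0.003 for all genes. Of 14 basophil and mast cell markers 9 were tested, and Hdc, the histamine-forming enzyme, rose from 2.03 ± 1.12 FPKM in saline to 6.5 ± 3.19 under OVA (1.24 ± 0.28, limma adjusted p = 0.0189). That call ended in 5 of 26 alternatives, among them those leaving out CT 3, CT 4 or the libraries with pancreas markers, with adjusted p up to 0.0700. Hdc rose in OS against saline too, to 8.31 ± 2.64 (1.67 ± 0.31, limma adjusted p = 0.00421), and that call was kept in all 20 alternatives. Of the 9 tested markers, 6 lay above 0 and 3 below in OVA against saline, with a median of 0.24 beside 0.01 for all genes. In OVA with mimic against OVA 3 lay above 0 and 6 below, and 0 passed in limma. There 5 of 9 had an unadjusted limma p under 0.05, where 10.1% of all genes did. Of 8 markers of type 2 innate lymphoid cells, which include Gata3 and Il1rl1 themselves, 5 were tested and Klrg1 fell from 3.43 ± 0.650 in saline to 2.17 ± 0.363 under OVA (-0.48 ± 0.12, limma adjusted p = 0.0291), a call that ended in 8 of 26 alternatives, among them without CT 1, CT 2, CT 3 or ON 2, with adjusted p up to 0.338. In OS, Klrg1 fell to 2.19 ± 0.382 (-0.47 ± 0.13 against saline, limma adjusted p = 0.0483), a call that ended in 15 of 20 alternatives, among them without CT 1, CT 2, CT 3, CT 5, OS 1, OS 2, OS 3, OS 4 or OS 5, with adjusted p up to 0.423. Areg and Nmur1, which help define those cells, had medians of 0.116 and 0.0378 FPKM.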

How the data were processed

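Poly(A) RNA of 26 mouse spleen libraries was analysed from the deposited table of FPKM values per gene. Tools listed without a role in the submitters' processing notes are edgeR 3.24.3, DESeq2 1.20.0, featureCounts 1.5.0-p3, StringTie 1.3.3b, HISAT2 2.0.5 and CASAVA. Multiplied by gene length, 100% of the deposited FPKM values were whole multiples of a step per library (tolerance 0.05), which gave back the reads. A read on 1 kilobase was worth 0.0520 to 0.0899 FPKM. The library size implied by that step was 0.712 times the recovered reads in ON 2, 0.802 in CT 4, 0.885 in MM 2 and 1.12 in ON 1. The deposited values were thus not scaled by read total alone.

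The 15672 genes that reached an FPKM of 1 in 5 or more libraries were fitted as log2(FPKM + 1) with limma 3.58.1 in R 4.3.3, with a variance trend and a mean per code. A treatment with 2 codes is the average of their means. P-values were adjusted by Benjamini-Hochberg over all genes fitted, in each of 9 comparisons, at 0.05. Members below the filter were fitted with all 35291 detected genes. Because of the pseudocount, fold changes of low genes are understated. The fit was first tested on simulated data. Relations used 100000 two-sided permutations, within codes for deviations. No 2 libraries looked like copies (highest r 0.983).

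All members were named. From other lists, up to 4 passing genes with the smallest p and up to 2 others with the highest FPKM could be named. Members and lists were chosen with earlier results of these data known. Alternatives were pseudocount, filter, scaling, library weights, voom on reads, design and libraries left out.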

Additional observations from a re-analysis of the deposited data

Results flagged for a closer look

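Within the codes and treatments, 53 sets of member values were searched for a library far from the others, and 9 were found. Chance gives about 1 in 20 such sets, and in the sparse cytokines 1 or 2 reads are enough. CT 4 lay apart in both receptor genes: Il4ra was 6.11 FPKM there and 16.1 to 19.3 in the other saline libraries, and Il1rl1 was 7.06 and 2.78 to 3.84. The same library had 6.62% of reads on mitochondrial genes. Of the libraries with pancreas markers, ON 2 had a Gata3 FPKM of 0.791, against 1.89 to 2.12 in the rest of ON, and MM 2 had an Il1rl1 FPKM of 5.72, against 1.76 to 3.87 in the other libraries of OVA with mimic. The part of mitochondrial or pancreas reads in these values was not tested.

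Stat6 was 47.5 in ON 1 and 37.2 to 39.6 in the rest of ON. Il4ra was 18.9 in MN 4 and 16.9 to 17.5 in the rest of MN. Il5 was 0.215 in OS 4 and 0.0396 in ON 5, with 0 in the rest of those codes. Il13 was 0.0962 in MN 1, from 2 reads, and 0.0452 to 0.0541 in the rest of MN.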

How the results depend on the processing

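No member was called under any alternative, and the lowest limma adjusted p was 0.0823. This covers 1650 values, from 81 pairs of a member and a comparison under several alternatives each, which share their libraries. The sign of some small differences turned, and the cause was not tested. Il1rl1 in OVA against saline was 0.0088 at equal total FPKM, 0.091 at equal total without pancreas markers and 0.13 with library weights. Weights gave -0.075 for Stat6 in OVA against saline and -0.013 for Il4ra in OVA with mimic against OVA. Il4 in that comparison was 0.053 without the pancreas libraries. Gata3 in OVA with mimic against saline was 0.057 at equal total FPKM, 0.082 at equal total without pancreas markers and 0.016 without the pancreas libraries. Equal totals without pancreas markers moved the median of all genes by 0.17 in OVA against saline and 0.14 in OVA with mimic against saline.

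Leaving out each library in turn gave -0.030 to 0.35 for Il4ra, -0.17 to 0.11 for Il1rl1 and -0.031 to 0.095 for Stat6 in OVA against saline, -0.057 to 0.036 for Il4 and -0.032 to 0.14 for Il4ra in OVA with mimic against OVA, and -0.075 to 0.016 for Gata3 in OVA with mimic against saline. CT 4 set the turned ends in OVA against saline.

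Counts over all genes moved more: 340 in OVA against saline ranged from 87 with 1 mean per treatment to 1435 with library weights, and 0 in each comparison of OVA with mimic reached 36 with weights. The count of 29 in OS against ON ranged from 0 with only those codes fitted to 564, that of 27 in MM against MN from 1 without MM 4 to 474, and those of 469, 80 and 47 in OS, ON and MM against saline from 88 to 1353, 13 to 859 and 17 to 518, each highest with weights. With the replicate number as a block, 0 of 7 members and 184 genes were called in OVA against saline. Same-numbered libraries of different codes showed no shared deviation by median r (-0.04, from -0.39 to 0.36). Such values cannot tell whether the numbers carry a weak pairing. At 11 to 37 reads for Il4 and 0 to 9 for Il13, counting error limits what can be seen.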
